A study of Mus musculus with 4 samples.

Results

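The genes described are Chil3, Hp, F13a1, Vcan, Mmp8, Lcn2, Fn1, Clec4a1, Clec4a2 and Clec4a3, which were grouped as genes of inflammatory classical monocytes. They are 10 of the 14697 genes in the count table of mouse blood cells, and each of the 10 was listed there. The genes were chosen for their levels in the monocytes of these same cells, so the levels by cell group are given as a description and without a test. The data hold 4 samples of peripheral blood from C57BL/6 female mice. The young group was 4 months old and the old group was 24 months old, and both were kept in standard housing without treatment. Blood of 2 mice was pooled for each sample, so that there were 2 young and 2 old samples and a sample stands for a pool. The 2 mice of a pool are not separable. Cells were separated on a density medium and red cells were lysed before the 10x Chromium assay. This droplet assay tags every captured RNA with a unique molecular identifier (UMI) and reads its 3′ end, so that copies of 1 molecule count once.

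Classical monocytes are the blood monocytes with high surface Ly6C, the product of Ly6c2 and its relatives. They leave the marrow through Ccr2, enter inflamed tissue and there become macrophages or dendritic cells, while those that stay in the blood turn into Ly6C-low patrolling monocytes. The 10 genes cover several tasks of these cells. Chil3 is a secreted chitinase-like lectin, Hp (haptoglobin) binds free hemoglobin, and F13a1 is the catalytic subunit of the coagulation factor that cross-links fibrin. Vcan (versican) and Fn1 (fibronectin) are matrix proteins, Mmp8 is a collagenase stored in neutrophil granules, and Lcn2 (lipocalin-2) withholds iron by binding bacterial siderophores. Clec4a1, Clec4a2 and Clec4a3 are neighbouring C-type lectin receptors of the dendritic cell immunoreceptor family, of which Clec4a2 carries an inhibitory motif in its cytoplasmic tail.

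Sequences next to a start of 5 of these genes are shown first. The 3 lectin genes are shown because they are close relatives that differed in their level by Ly6c2, and Lcn2 and Mmp8 because they were the only members with both motifs searched. Each comes from the 250 bases before a transcription start in the RefSeq promoter table of build GRCm38.p6, 5′ to 3′ on the strand of the gene, and bases that GENCODE M21 annotates as untranslated region were left out. Clec4a3 has 2 listed starts. The stretch printed lies before its downstream start, inside the first intron of the transcript that begins at the upstream one, and the window before the upstream start held neither motif. Capitals mark GAGGAA, the core letters bound by PU.1, and TTGCNNAA, the core letters of a C/EBP site, on either strand. A match describes letters and is not a site of binding.
Clec4a1, chr6:122921598-122921847, plus strand: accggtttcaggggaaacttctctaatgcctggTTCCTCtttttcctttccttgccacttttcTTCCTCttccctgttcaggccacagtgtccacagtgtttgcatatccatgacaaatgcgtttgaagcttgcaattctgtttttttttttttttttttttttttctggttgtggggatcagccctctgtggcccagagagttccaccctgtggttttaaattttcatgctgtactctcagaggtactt
Clec4a3, chr6:122952541-122952643, plus strand: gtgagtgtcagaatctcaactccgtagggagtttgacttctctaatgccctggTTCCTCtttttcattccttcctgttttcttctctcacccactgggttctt
Clec4a2, chr6:123122440-123122621, plus strand: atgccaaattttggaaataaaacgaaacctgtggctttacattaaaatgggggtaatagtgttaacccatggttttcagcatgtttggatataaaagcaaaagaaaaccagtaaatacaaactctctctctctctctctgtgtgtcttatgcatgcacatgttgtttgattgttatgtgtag
Lcn2, chr2:32387798-32387989, minus strand: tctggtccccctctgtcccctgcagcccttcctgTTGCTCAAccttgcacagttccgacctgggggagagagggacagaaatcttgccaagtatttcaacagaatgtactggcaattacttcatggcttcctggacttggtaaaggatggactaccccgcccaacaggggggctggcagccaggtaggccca
Mmp8, chr9:7558179-7558428, plus strand: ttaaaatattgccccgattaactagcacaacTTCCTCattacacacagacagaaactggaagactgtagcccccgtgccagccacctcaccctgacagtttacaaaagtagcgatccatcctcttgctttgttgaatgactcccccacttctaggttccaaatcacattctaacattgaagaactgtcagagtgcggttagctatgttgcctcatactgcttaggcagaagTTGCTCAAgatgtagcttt

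The 8 members with an entry in the table have 10 windows of 250 bases, since Clec4a3 and F13a1 have 2 each. GAGGAA or its reverse complement lay in 5 of the 10 (1 each of Clec4a1, Clec4a3, F13a1, Lcn2 and Mmp8), against 23.3% of 32851 promoters in the table. TTGCNNAA lay in 2 of the 10 (Lcn2 and Mmp8), against 9.56% of all promoters. The PU.1 letters of Lcn2, 20 bases before its RefSeq start, are within annotated untranslated sequence and are not printed. For Mmp8 the nearest GENCODE start lay 27 bases downstream of the RefSeq start used here. The windows of Clec4a1 and Clec4a3 shared a run of 17 bases, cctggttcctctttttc, which held the PU.1 letters and was found in 2 of the 32851 promoters, these same ones. In Clec4a3 this run is part of the intronic stretch above. The longest run that any other pair of members shared was 10 bases. The Clec4a2 window held neither motif. On chromosome 6 of GRCm38.p6, Clec4a1 lies at chr6:122921848-122934619, Clec4a3 at chr6:122952515-122969878 and Clec4a2 at chr6:123122690-123143999.

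Monocytes were cells with at least 10 Lyz2 UMIs, after cells with at least 2 Cd209a UMIs had been set apart as dendritic cells (DC). Monocytes with at least 2 Ly6c2 UMIs were called Ly6c2-high and those with 0 or 1 Ly6c2-low. By these rules 1171 of 14588 cells were monocytes, of which 596 were Ly6c2-high and 575 Ly6c2-low, and 76 cells were DC. The 2 young samples held 43 and 65 Ly6c2-high and 98 and 168 Ly6c2-low cells. The 2 old samples held 321 and 167 Ly6c2-high and 199 and 110 Ly6c2-low cells. Background was read in 11400 lymphocytes with at most 9 Lyz2 UMIs that were not DC. B cells had at least 2 Cd79a UMIs and 0 Cd3e UMIs, and T cells had a Cd3e UMI and at most 1 Cd79a UMI. Cells with more Lyz2 UMIs were thus left out of this background by rule. Levels are counts per 1000000 UMIs of a cell group in a sample (CPM). The median depth was 3803 to 4807 UMIs per Ly6c2-high cell and 2460 to 3891 per Ly6c2-low cell. Shares of cells with a UMI therefore stand beside shares from cells thinned at random to 1000 UMIs. The monocyte markers (Lyz2, Csf1r, Ly6c2, Ccr2, Cx3cr1, Fcgr3 and Cd68) summed to 31560 to 41793 CPM in Ly6c2-high cells, 13419 to 29807 CPM in Ly6c2-low cells and at most 1367 CPM in lymphocytes. Samples held 9521253 to 18658072 UMIs, and a pair of samples shared 11 to 24 cell barcodes.

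The 10 genes did not behave as one group. Chil3, Hp, F13a1, Vcan, Mmp8 and Clec4a2 were higher in Ly6c2-high than in Ly6c2-low cells in each of the 4 samples. For Vcan this order was lost in young sample 1 after thinning, with the cell groups redrawn at lowered limits (−0.99 log2). Clec4a1 and Clec4a3 overlapped between the groups with all cells counted, and without cells with at least 2 UMIs of the macrophage complement genes C1qa, C1qb and C1qc both were lower in Ly6c2-high cells of each sample. Fn1 and Lcn2 depended on small sets of cells with markers of other cell types. With all cells counted, 6 of the 10 genes were thus higher in Ly6c2-high cells throughout, and without C1q cells Fn1 was as well.

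**Figure D1:**
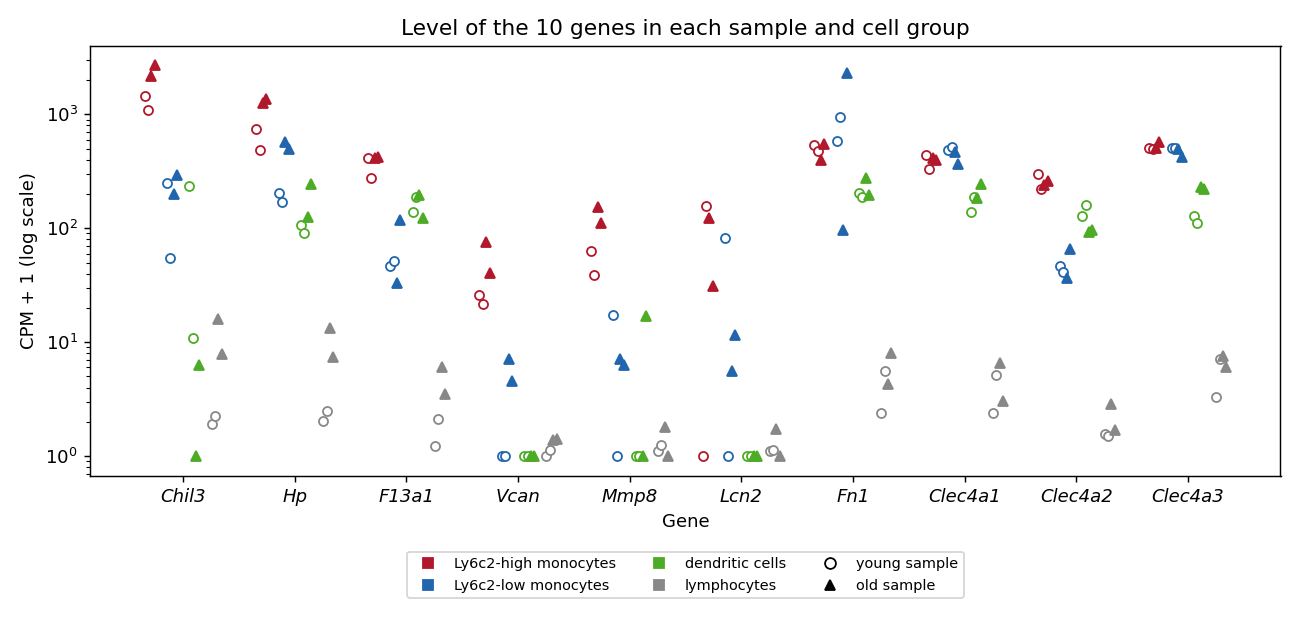
Level of each of the 10 genes in Ly6c2-high monocytes, Ly6c2-low monocytes, DC and lymphocytes, as CPM + 1 on a log scale, with 1 point per sample (open circles young, filled triangles old). For Chil3 and Clec4a2 the 4 red points lie above the 4 blue points, and for Clec4a1 and Clec4a3 the red and blue points overlap.

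In Ly6c2-high cells Chil3 was at 1443 and 1102 CPM in young and 2163 and 2687 CPM in old samples. In Ly6c2-low cells it was at 247 and 53.8 CPM in young and 198 and 294 CPM in old samples. No sample's Ly6c2-low value reached the lowest Ly6c2-high value. The difference on the log2(CPM + 10) scale was 3.29 ± 0.67 (SD, n = 4 samples). A Chil3 UMI was found in 69.8%, 46.2%, 78.2% and 83.8% of Ly6c2-high cells (young 1, young 2, old 1, old 2), and after thinning in 53.5%, 32.3%, 58.6% and 68.3%. The thinned share in Ly6c2-low cells was 4.17% to 18.2%, and in lymphocytes, which should lack the gene, 0.0988% to 1.51%. In DC, Chil3 was nearly absent in 3 samples (9.95, 0 and 5.32 CPM), and the 22 UMIs of young sample 1 (234 CPM) came from 1 cell.

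Hp was at 747 and 487 CPM in young and 1263 and 1359.7 CPM in old Ly6c2-high cells. Its Ly6c2-low level was 205 and 170.2 CPM in young and 566 and 497 CPM in old samples. The old Ly6c2-low values thus reached the lowest young Ly6c2-high value, and within each sample Ly6c2-high was the higher, by 1.46 ± 0.28 (log2, SD, n = 4). An Hp UMI was found in 92.4% of the 596 Ly6c2-high cells and, after thinning, in 63.6%. DC held 89.6 to 245 CPM.

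F13a1 was at 417 and 275 CPM in young and 414 and 419.7 CPM in old Ly6c2-high cells, and at 45.5, 50.4, 32.2 and 116 CPM in the Ly6c2-low cells of the same samples. The groups did not overlap, and the difference was 2.57 ± 0.70 (log2, SD, n = 4). DC lay between them at 138, 189, 194 and 122 CPM, above the Ly6c2-low value of their own sample each time. Platelets also carry the protein. In lymphocytes of the 2 old samples summed, F13a1 was at 5.96 CPM (95% exact Poisson interval 4.57 to 7.64) in cells with a UMI of the platelet genes Ppbp or Pf4. In cells without, it was at 2.76 CPM (1.90 to 3.87). The intervals leave out the spread between samples. Old 1 held 77 F13a1 UMIs among 15126144 lymphocyte UMIs, and old 2 held 18 among 7248931. Neither this difference within each sample nor the part of platelet RNA in it was tested. Chil3 in the same lymphocytes was at 12.2 and 12.4 CPM.

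Vcan and Mmp8 had few UMIs and the largest share of them in Ly6c2-high cells. Vcan was at 24.9 and 20.9 CPM in young and 75.1 and 39.6 CPM in old Ly6c2-high cells. In Ly6c2-low cells it had 0 UMIs in the 98 and 168 young cells, which at this depth allows up to 3.06% and 1.79% of cells with a Vcan UMI and says less of the cells that express it, and 4 and 2 UMIs in old samples. Over all samples 91.2% of its 181 UMIs lay in Ly6c2-high cells, and the level there was at least 8.89-fold that in DC, where none was found. Within samples this bound was 0.780 and 0.698 in young and 2.20 and 2.48 in old samples, so that no excess over DC was detectable at the depth of the young samples. Mmp8 was at 62.2 and 38.2 CPM in young and 152 and 110.3 CPM in old Ly6c2-high cells, against 16.3, 0, 6.14 and 5.28 CPM in Ly6c2-low cells. Of its 390 UMIs, 92.3% lay in Ly6c2-high cells. On the log2(CPM + 10) scale the difference between the groups was 1.93 ± 0.33 for Vcan and 2.51 ± 0.83 for Mmp8 (SD, n = 4). At levels this low the added 10 CPM narrows the difference. Without it, Ly6c2-high over Ly6c2-low was 12.2- and 11.2-fold for Vcan in old 1 and old 2. In young 1 and young 2 it was at least 2.55- and 4.00-fold. For Mmp8 it was 3.83-fold in young 1, at least 7.34-fold in young 2, and 24.8- and 20.9-fold in old 1 and old 2.

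**Figure D2:**
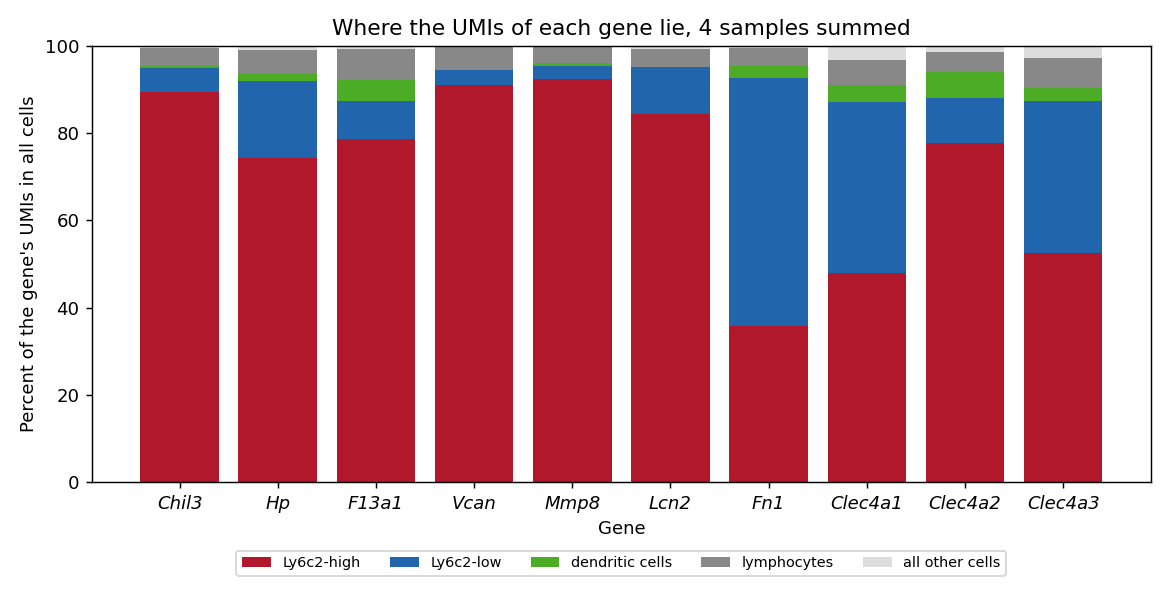
Percent of the UMIs of each gene that lay in Ly6c2-high monocytes, Ly6c2-low monocytes, DC, lymphocytes and all other cells, summed over the 4 samples. The red share reaches 92.3% for Mmp8 and 35.8% for Fn1, for which Ly6c2-low cells held 56.9%.

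The 3 lectin genes, which lie within 1 stretch of chromosome 6, differed from each other. Clec4a2 was at 299, 222, 239 and 258 CPM in Ly6c2-high cells (young 1, young 2, old 1, old 2) and at 45.5, 39.9, 35.3 and 65.2 CPM in Ly6c2-low cells. These values did not overlap, and the difference was 2.25 ± 0.30 (log2, SD, n = 4). Clec4a1 was at 442, 334, 413 and 397 CPM in Ly6c2-high and 484, 517, 467 and 363 CPM in Ly6c2-low cells. The values overlapped, with a difference of −0.20 ± 0.31. Clec4a3 was at 510.1, 494, 505 and 573 CPM in Ly6c2-high and 510.3, 510.5, 497 and 418 CPM in Ly6c2-low cells, which overlapped as well (0.11 ± 0.23). Without the cells with C1q UMIs, which are described with Fn1, Clec4a1 was at −0.46 ± 0.29 and Clec4a3 at −0.18 ± 0.16 (Ly6c2-high minus Ly6c2-low), with each of the 4 samples below 0. Without C1q, neutrophil-marked and lymphocyte-marked cells together the differences were −0.54 ± 0.21 and −0.28 ± 0.020. The differences also moved with the Lyz2 limit. At 5 Lyz2 UMIs they were 0.12 ± 0.57 for Clec4a1 and 0.44 ± 0.51 for Clec4a3, and at 20 UMIs −0.19 ± 0.32 and 0.13 ± 0.36. Clec4a1 and Clec4a3, the pair with the shared run, did not separate the groups with all cells counted, which with 3 genes is a description only. Both were above DC in each sample, where Clec4a1 was at 138 to 245 CPM and Clec4a3 at 109 to 228 CPM. Of their close relatives, Clec4a4 had 3 UMIs and Clec4b1 182 UMIs in all cells. How the authors' counting treated reads shared between these copies was not tested.

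Fn1 was found in most Ly6c2-high cells and was held by few Ly6c2-low cells. In Ly6c2-high cells it was at 535 and 476 CPM in young and 393 and 552 CPM in old samples, with a UMI in 424 of 596 cells and at most 23 UMIs in a cell. In Ly6c2-low cells it was at 582, 946, 95.2 and 2318 CPM, which overlaps the Ly6c2-high values on both sides. Of the 575 Ly6c2-low cells, 55 held at least 2 UMIs of C1qa, C1qb and C1qc, the complement genes that mark macrophages. These 55 cells had a median of 30 Fn1 UMIs and 8173 UMIs in all, and they held 1939 of the 2102 Fn1 UMIs (92.2%). The other 520 Ly6c2-low cells were at 97.2 CPM, below the 454 CPM of all Ly6c2-high cells. Without cells with C1q UMIs the difference between the groups was 2.27 ± 0.91, in place of −0.30 ± 1.69 (log2, SD, n = 4). The macrophage markers C1qa, C1qb, C1qc, Vcam1 and Cd5l summed to 1147, 1940, 433 and 7309 CPM in Ly6c2-low cells, in the same order of samples as Fn1. The same 55 cells were low in the lectins, with Clec4a1 at 89.4 CPM against 548 CPM in the other Ly6c2-low cells and Clec4a3 at 63.5 against 587 CPM.

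A large part of the Lcn2 signal lay in 4 cells. Monocytes held 301 Lcn2 UMIs, of which 176 (58.5%) were in cells with at least 2 UMIs of the neutrophil genes Retnlg, Ly6g, Cxcr2, Camp and Ngp. These cells held 25, 40, 48 and 63 Lcn2 UMIs beside 314 to 498 UMIs of the 5 neutrophil genes and 666 to 803 UMIs of S100a8, in cells of 2945 to 4211 UMIs. They were 1 Ly6c2-low cell of young sample 1, 1 Ly6c2-high cell of young sample 2 and 2 Ly6c2-high cells of old sample 1. With them, Lcn2 was at 0, 156, 121 and 30.0 CPM in Ly6c2-high cells and 81.3, 0, 4.6 and 10.6 CPM in Ly6c2-low cells, with no order of the groups in common (1.25 ± 3.23 log2, SD, n = 4). The other 1167 monocytes held 125 Lcn2 UMIs in 67 cells, as 0, 5, 89 and 31 UMIs in young 1, young 2, old 1 and old 2. Without the marked cells the difference was 0 in young sample 1, which then had no Lcn2 UMI, and 1.46, 2.11 and 0.96 in young 2, old 1 and old 2 (1.13 ± 0.89 log2, SD, n = 4). The 0 of 43 Ly6c2-high cells of young sample 1 allow up to 6.98% of cells with an Lcn2 UMI at this depth.

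**Figure D3:**
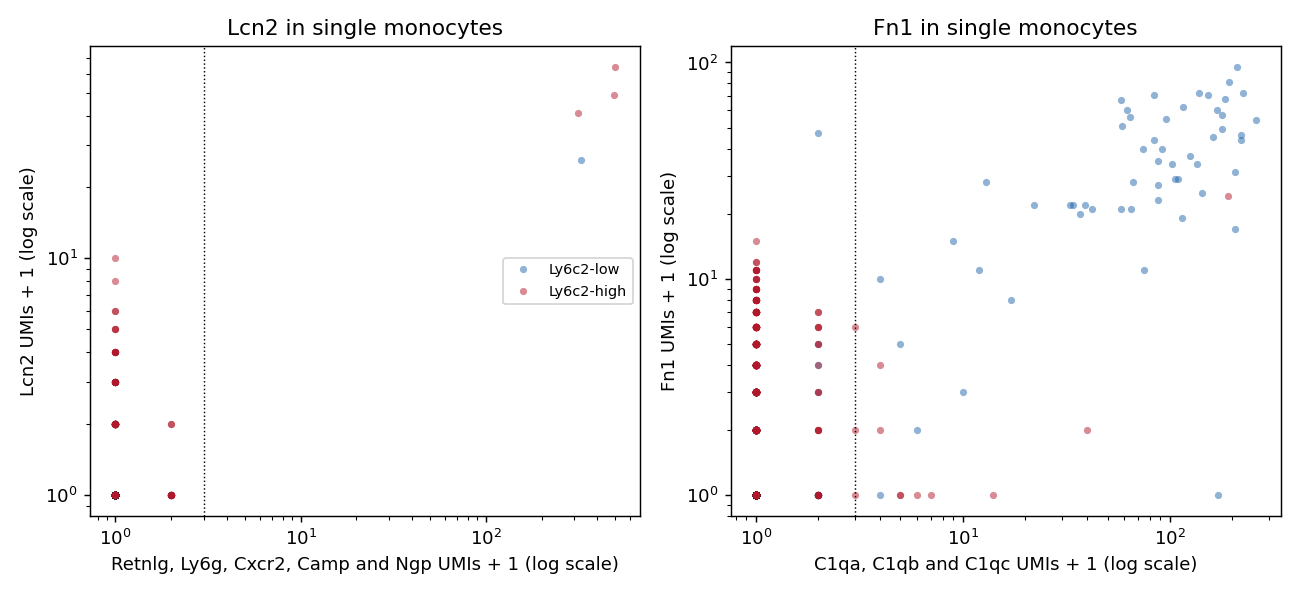
Each point is 1 monocyte, red if Ly6c2-high and blue if Ly6c2-low, on log scales of UMIs + 1. Left, Lcn2 against 5 neutrophil genes, where the 4 cells at the upper right hold 176 of 301 Lcn2 UMIs. Right, Fn1 against C1qa, C1qb and C1qc, where the blue points at the upper right are the cells that hold 92.2% of the Fn1 UMIs of Ly6c2-low cells. The dotted lines mark 2 UMIs of the marker genes.

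Summed over samples, the 6 separating genes were higher in monocytes with 1 Ly6c2 UMI than in those with 0, and higher again in those with 2 to 4. Chil3 was at 145, 439, 1509, 2010.1, 2413 and 2408 CPM in monocytes with 0, 1, 2 to 4, 5 to 9, 10 to 19 and 20 or more Ly6c2 UMIs. The ages were mixed unequally, with 232 of 491 cells young in the lowest and 13 of 169 in the highest class. In young cells Chil3 was at 106, 213, 1001, 1445, 1698 and 719 CPM, the last in those 13 cells, and in old cells at 174, 568, 1741, 2154, 2509 and 2539 CPM. Vcan had 0 UMIs in young cells with 0 or 1 Ly6c2 UMIs, and young Mmp8 was highest at 2 to 4 Ly6c2 UMIs (68.4 CPM). With both ages summed, F13a1 went from 50.9 to 544 CPM and Clec4a2 from 36.2 to 276 CPM between the lowest and the highest class. Clec4a1 was at 456 and 364 CPM and Clec4a3 at 493 and 521 CPM in these 2 classes. Just outside the limit, at 1 Ly6c2 UMI, the 10 genes summed to 2974 CPM, and just inside, at 2 UMIs, to 3926 CPM. Lcn2, much of which lay in the neutrophil-marked cells, was at 83.6 CPM just outside and 383 CPM just inside. At the Lyz2 limit the sum was 574 CPM for 8 to 9 UMIs and 722 CPM for 10 to 11 UMIs. The classes also differ in depth, from a median of 2617 UMIs per cell at 0 Ly6c2 UMIs to 5716 at 20 or more.

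**Figure D4:**
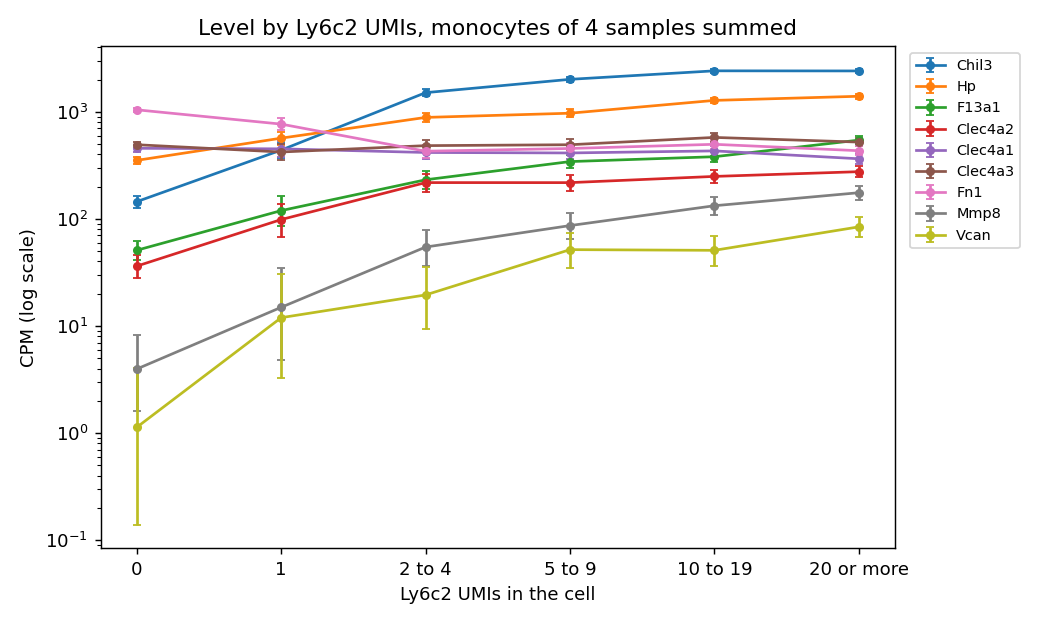
CPM (log scale) of 9 of the genes in monocytes grouped by their Ly6c2 UMIs, summed over the 4 samples, with 95% exact Poisson intervals that cover counting error only and with the ages mixed unequally between classes. Chil3 lies at 145 CPM in the lowest and 2408 CPM in the highest class, while Clec4a1 and Clec4a3 lie between 364 and 576 CPM.

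Per cell, the genes added up to a clear difference between the groups in every sample. After thinning, a Ly6c2-high cell held UMIs of 2.93, 2.00, 3.01 and 3.25 of the 10 genes on average (young 1, young 2, old 1, old 2). A Ly6c2-low cell held 1.29, 1.26, 1.42 and 1.83, a DC 0.722 to 0.963, and a B or T cell at most 0.0550. Among genes that are no members, the summed 10 genes were followed most closely by Lyz2, Cd302, Ctss, Ccl6 and Tyrobp over 16 sums (4 samples by 4 cell groups), with Pearson's r of 0.992, 0.987, 0.986, 0.985 and 0.983 on the log2(CPM + 10) scale among 2364 genes ranked. Lyz2 defined the monocytes, and the sums of a sample share a library, so these r values are descriptions only.

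Regarding age, the share of monocytes that were Ly6c2-high was 30.5% and 27.9% in young and 61.7% and 60.3% in old samples. After thinning, with the limits lowered to 4 Lyz2 UMIs, 1 Ly6c2 UMI and 1 Cd209a UMI, it was 29.2%, 23.2%, 56.9% and 52.9%. The old shares lay above the young ones by both counts. A two-sided exact permutation test gave p = 0.333, the smallest that 2 against 2 samples allow. Monocytes were 3.61% and 6.04% of all cells in young and 11.2% and 12.7% in old samples. Age was therefore compared within Ly6c2-high and within Ly6c2-low cells, on UMIs summed per sample with edgeR's quasi-likelihood test over all genes detected in at least 10% of the cells in each age. In Ly6c2-high cells 5 of 3585 genes passed at an adjusted p under 0.05 (0.139%), 364 at an unadjusted p under 0.05, and 4 passed in DESeq2. The count was 22 without young sample 1, 0 without young sample 2, 14 without old sample 1 and 21 without old sample 2. Of the 8 members tested there, 2 passed, Chil3 and Hp. Both were known to be higher in old monocytes when the 10 genes were chosen, so their calls are no independent support and their p-values are not given.

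**Figure D5:**
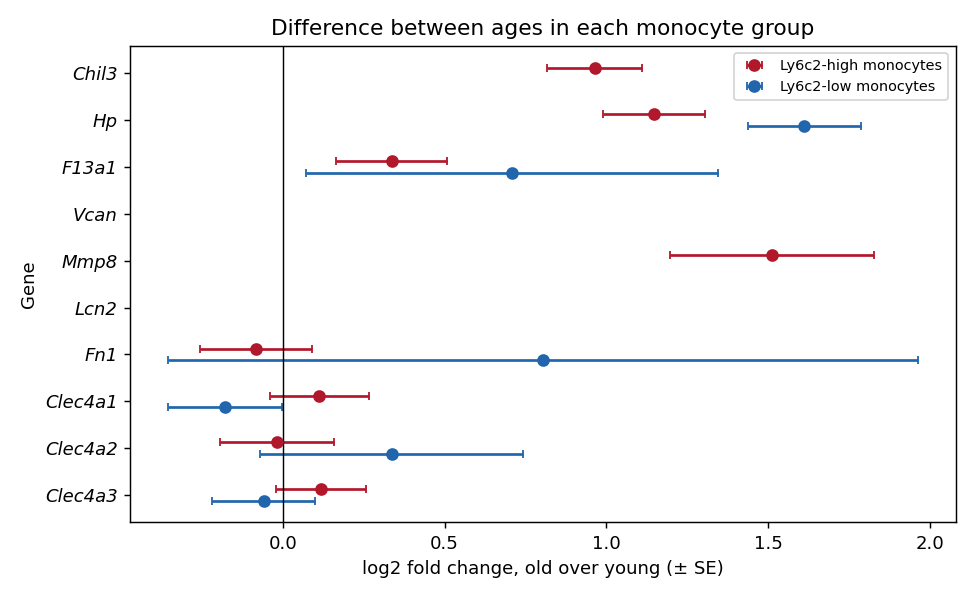
log2 fold change of old over young (x axis) for each gene tested, as point and SE derived from the edgeR F statistic, in Ly6c2-high (red) and Ly6c2-low (blue) monocytes, 2 samples per age. Chil3, Hp and Mmp8 lie to the right of 0 in Ly6c2-high cells, and the 3 lectins and Fn1 lie within about 1 SE of 0 there.

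Both old samples lay above both young samples in Ly6c2-high cells for Chil3, by a log2 fold change of 0.96 ± 0.15 (SE), and for Hp, by 1.15 ± 0.16. The Hp levels did not overlap in Ly6c2-low cells either, at a log2 fold change of 1.61 ± 0.18. Chil3 overlapped there and was detected in too few cells for the test. The level of both genes in lymphocytes moved with age as well, from 0.921 and 1.26 to 14.9 and 6.90 CPM for Chil3 and from 1.04 and 1.51 to 12.4 and 6.35 CPM for Hp. The part of free RNA in the monocyte difference was not tested. In cells with a given number of Ly6c2 UMIs the order was the same, as Chil3 was at 1001 CPM in young and 1741 CPM in old cells with 2 to 4 UMIs and at 1698 and 2509 CPM in those with 10 to 19. The 7 platelet markers, all of which were detected in both monocyte groups, summed to 0 and 6.95 CPM in young and 446 and 243 CPM in old Ly6c2-high cells. Without the cells that held Ppbp or Pf4 UMIs the log2 fold change was 1.09 ± 0.14 for Chil3 and 1.17 ± 0.15 for Hp. Without young sample 2 it was 0.85 ± 0.16 and 0.92 ± 0.14, and neither gene passed. Chil3 also missed the threshold with the Ly6c2 limit at 4 (0.67 ± 0.13) and after thinning with the lowered limits (0.96 ± 0.22).

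Mmp8 had the largest fold change of the members tested in Ly6c2-high cells, 1.51 ± 0.32 (log2, SE), and its young values of 62.2 and 38.2 CPM lay below its old values of 152 and 110.3 CPM. It did not pass in edgeR (adjusted p = 0.0765), and over 19 alternatives the adjusted p ranged from 0.000313 to 0.542, with 8 under the threshold. The fold change ranged from 1.09 to 1.88 over these alternatives. The lowest was 1.09 ± 0.32 without lymphocyte-marked cells (adjusted p = 0.118 in edgeR). With 1 sample left out it was 1.81 without young 1, 1.21 without young 2, 1.21 without old 1 and 1.69 without old 2. The fit without old sample 2 gave the lowest adjusted p. In young sample 2, 5 of the 11 Mmp8 UMIs of Ly6c2-high cells lay in the neutrophil-marked cell, and without neutrophil-marked cells the fold change was 1.88 ± 0.37 (adjusted p = 0.0489 in edgeR). Vcan, at 24.9 and 20.9 against 75.1 and 39.6 CPM, and Lcn2 were detected in too few young cells to be tested. Of the 6 members tested other than Chil3 and Hp, 1 (Mmp8) was higher in each old than in each young sample, against 19.5% of all genes tested. In Ly6c2-low cells it was 0 of the 5 tested other than Hp, against 9.99% of all genes.

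The other 5 members tested in Ly6c2-high cells did not pass in edgeR. The log2 fold change was 0.34 ± 0.17 for F13a1 (adjusted p = 0.559), −0.08 ± 0.17 for Fn1 (0.937), 0.11 ± 0.15 for Clec4a1 (0.892), −0.02 ± 0.18 for Clec4a2 (0.998) and 0.12 ± 0.14 for Clec4a3 (0.853). Each of these 5 changes also missed the threshold under its 20 alternatives within Ly6c2-high cells. In Ly6c2-low cells 0 of 3184 genes passed in edgeR (0%), Hp included, and 111 at an unadjusted p under 0.05. In DESeq2 1 gene passed there, the member Hp. The fold changes there were 0.71 ± 0.64 for F13a1, 0.80 ± 1.16 for Fn1, −0.18 ± 0.18 for Clec4a1, 0.34 ± 0.41 for Clec4a2 and −0.06 ± 0.16 for Clec4a3, with adjusted p of 0.972 to 0.985 in edgeR. Fn1 had the widest error, and its level of 2318 CPM in old sample 2 went with 30 C1q cells there, against 3 in old sample 1. Without old sample 1, 99 genes passed in Ly6c2-low cells, with F13a1 at 1.41 ± 0.29 (adjusted p = 0.0296) and Fn1 at 1.74 ± 0.26 (adjusted p = 0.00840). The age differences of Ly6c2-high and Ly6c2-low cells were also compared directly, and 0 of 3849 genes differed in edgeR (123 at an unadjusted p under 0.05, 0 in DESeq2), members included. This difference for Fn1 turned on 1 sample, at −1.58 ± 0.19 (adjusted p = 1.6e-14) without old sample 1 and 2.66 ± 0.30 (adjusted p = 0.000148) without old sample 2. Without old sample 1, 55 genes passed.

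When all monocytes of a sample were summed without regard to Ly6c2, an alternative added after seeing the data, 46 of 3372 genes passed in edgeR (1.36%), 31 of them higher in old (0.919%). F13a1 then passed, at a log2 fold change of 1.11 ± 0.15 (adjusted p = 0.0156), and Clec4a2 was at 0.72 ± 0.16 (adjusted p = 0.0710). Clec4a1 and Clec4a3 were at −0.12 ± 0.11 and 0.06 ± 0.11. F13a1 and Clec4a2 are genes that separated Ly6c2-high from Ly6c2-low cells. Within either group their adjusted p was at least 0.559 in edgeR with the gates and filter given above. With cells of 1 Cd209a UMI taken out, F13a1 in Ly6c2-high cells was at 0.52 ± 0.17 (adjusted p = 0.218 in edgeR). F13a1 in Ly6c2-low cells without old sample 1 is given above. The part of the higher Ly6c2-high share in the pooled difference was not tested.

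The listed genes around the members did not pass in Ly6c2-high or Ly6c2-low cells. Of 13 other classical monocyte genes tested in Ly6c2-high cells, 0 passed in either direction and 10 were higher in old, with a median log2 fold change of 0.34 against −0.02 over all genes. Ccr2, the chemokine receptor for marrow exit, was at 1033 and 852 CPM in young and 1296 and 1381 CPM in old samples (adjusted p = 0.133 in edgeR). Of 12 nonclassical monocyte genes, 0 passed and 2 were higher in old (median −0.47). Ace, which encodes angiotensin-converting enzyme, was at 112 and 104 CPM in young and 44.9 and 30.0 CPM in old samples (adjusted p = 0.0765 in edgeR). Of 9 regulators, 0 passed and 2 were higher in old (median −0.30). Cebpa and Cebpb, which encode C/EBP factors, were at 131, 146, 55.4 and 146 CPM and at 56.0, 62.6, 57.2 and 68.4 CPM in young 1, young 2, old 1 and old 2 (adjusted p = 0.710 and 0.998 in edgeR). Spi1, which encodes PU.1, was at 902, 581, 671 and 692 CPM, and Irf8, a transcription factor of monocyte and DC development, at 330, 181, 177 and 162 CPM (adjusted p = 0.958 and 0.473 in edgeR). Of 7 genes for partners that the members bind, such as Cd44, Itga4 and Itgb1, 0 passed and 3 were higher in old (median −0.09). The lists of other C-type lectins, of other matrix, protease and coagulation genes and of neutrophil genes had 2 genes tested each, and 0 passed. In Ly6c2-low cells 0 genes of these lists passed as well. The other genes that passed in Ly6c2-high cells were Ifi30, Lgals1 and Ms4a6d, named after their values were seen, with log2 fold changes of 0.83, 0.90 and 1.18 (adjusted p = 0.0349, 0.0133 and 0.0349 in edgeR).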

How the data were processed

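Single cells of 2 young and 2 old pooled blood samples were measured with the 10x Chromium 3′ assay. The deposited UMI counts are the authors' output of Cell Ranger on mm10, after cells had been filtered in Seurat 2.3.0 (tools and version per the submitters' processing notes) to 500 to 4000 genes and under 10% mitochondrial reads. The authors' methods state that duplicates were aggregated in Cell Ranger, young and old separately, before the ages were merged. That step cannot be told apart from age. The sources used here do not give whether duplicates were brought to a common depth. Over all cells the median depth was 2332 and 2233 UMIs per cell in young and 3186.5 and 3482 in old samples. Counts were used unchanged, and each cell's sample came from the deposited list of cells. The members and lists were chosen with earlier results of these data known.

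Counts were summed per sample and cell group, with gates on Lyz2, Ly6c2, Cd209a, Cd79a and Cd3e. CPM were computed from these sums. Shares were also computed after each cell was thinned to 1000 UMIs. Thinned shares of cells with a UMI and numbers of genes per cell kept the original cell groups. The thinned Ly6c2-high share, group differences and age fits used groups redrawn at the lowered limits of Lyz2, Ly6c2 and Cd209a. No doublet caller was run. Of 596 Ly6c2-high cells, 206 held at least 2 UMIs of lymphocyte genes, and leaving such cells out of both monocyte groups was an alternative. Ly6c2-low cells carried B cell RNA as well. The B cell markers summed to 1268, 1007, 1395 and 521 CPM there (young 1, young 2, old 1, old 2). In Ly6c2-high cells the sums were 230, 848, 633 and 369 CPM. Age was tested in edgeR 4.0.16 (TMM, quasi-likelihood test, Benjamini-Hochberg over all genes tested, threshold 0.05), with n = 2 per age. The SE beside an edgeR fold change is its absolute log2 value divided by the square root of the F statistic. DESeq2 1.42.0, other scaling, filters, gates, left-out samples and left-out marked cells were alternatives. The tests were also run on simulated counts, and that run is no support for any call given here. Genes named were the 10 members, the gate genes, up to 4 of the first tested genes of each list in list order, and the 5 genes most like the members. No protein sequences were used here, nor promoter entries for Hp and Fn1. Poisson intervals are exact, at 95%, and hold counting error alone, and 3 counts are the limit set for a count of 0. Scripts ran in R 4.3.3 and Python 3.11.15 (pandas 2.3.3, scipy 1.17.1, matplotlib 3.10.9, numpy 2.4.6).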

Additional observations from a re-analysis of the deposited data

Results flagged for a closer look

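Clec4a3 was set apart because its difference between Ly6c2-high and Ly6c2-low monocytes was of one sign in both young and of the other in both old samples. Ly6c2-high minus Ly6c2-low was −0.121 CPM in young sample 1, at 510.1 against 510.3 CPM, and young sample 2 was at 494 against 510.5 CPM. The old samples were at 505 against 497 CPM and at 573 against 418 CPM. The difference between the ages was not tested on this scale, and the edgeR comparison of the age differences over all genes gave an adjusted p of 0.999 for Clec4a3. The change of sign was not seen without cells with C1q UMIs, at −0.12, −0.24, −0.0075 and −0.37 (log2, young 1, young 2, old 1, old 2). Nor was it seen without C1q, neutrophil-marked and lymphocyte-marked cells together, at −0.26, −0.29, −0.26 and −0.30. With the Lyz2 limit at 5 UMIs the gap between the ages was wider, at 0.0082, −0.0037, 0.95 and 0.81. With that limit at 20 UMIs the difference was 0.022, −0.096, −0.085 and 0.67.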

How the results depend on the processing

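With 2 samples per age, calls shift easily with the fit, and Vcan and Lcn2 lie near the limit of detection. Against 5 genes called in Ly6c2-high cells, the count was 10 with the filter of edgeR itself, 86 without a filter, 24 at 5 Lyz2 UMIs, 11 at 1 Ly6c2 UMI, 8 after thinning and 23 with cells of 1 Cd209a UMI taken out. It was 26 without C1q cells, 33 without lymphocyte-marked cells, 24 without Ppbp or Pf4 cells, 10 without neutrophil-marked cells, 32 without C1q, neutrophil-marked and lymphocyte-marked cells together and 46 over all monocytes (the last 2 added after seeing the data). Leaving out 1 sample in turn gave 0 to 22. In a fit with 1 sample in an age, that sample is assumed to vary like the others.

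Against 0 genes called in Ly6c2-low cells, the count was 126 without a filter, 3 without Ppbp or Pf4 cells and 1 with DESeq2, with the Ly6c2 limit at 4, after thinning, without C1q cells and without the 3 kinds of marked cells together, and 0 to 99 with 1 sample left out. Against 0 genes whose age difference differed between the groups, it was 25 without a filter, 5 after thinning, 7 without C1q cells, 7 without Ppbp or Pf4 cells, 2 without the 3 kinds together and 0 to 55 with 1 sample left out. The cause of these moves was not tested.

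Sample numbers are shared between the ages, but nothing says that they mark a shared litter or day. Same-numbered samples had deviations that correlated at r = −0.08 over genes in Ly6c2-high and 0.13 in Ly6c2-low cells. With the replicate block, 46 genes were called in Ly6c2-high and 1 in Ly6c2-low cells, and Fn1 in Ly6c2-low cells was at −0.32.

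Some age differences that had not passed turned sign, all log2. Fn1 in Ly6c2-high cells was at 0.045 without a filter, 0.082 with the Ly6c2 limit at 4, 0.31 after thinning, 0.031 without C1q cells, 0.037 without lymphocyte-marked cells and 0.058 without the 3 kinds together, and at −0.35 to 0.13 with 1 sample left out. Clec4a1 there was at −0.12 after thinning and −0.016 to 0.28 with 1 sample left out. Clec4a2 was at 0.10 without a filter, 0.20 at 1 Ly6c2 UMI, 0.030 with cells of 1 Cd209a UMI taken out and −0.16 to 0.15 with 1 sample left out. In Ly6c2-low cells without Ppbp or Pf4 cells, Fn1 was at −0.080, Clec4a1 at 0.038 and Clec4a3 at 0.27. Young Ly6c2-low cells held Pf4 at 195 and 641 CPM with Ppbp at 0 CPM. Leaving out Ppbp or Pf4 cells is therefore not a removal of platelet RNA alone there. How far it overlaps with leaving out C1q cells was not tested. Clec4a3 was also at 0.12 without C1q cells, 0.095 without lymphocyte-marked cells, 0.18 without the 3 kinds together and −0.12 to 0.018 with 1 sample left out. The Fn1 difference between the groups was at −0.87 without the sample term, −0.85 without C1q cells, −0.080 without Ppbp or Pf4 cells, −0.98 without the 3 kinds together and −1.58 to 2.66 with 1 sample left out.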
